A study of Mus musculus with 6 samples.

Results

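The genes described here encode enzymes of the tricarboxylic acid (TCA) cycle together with the NADP-dependent isocitrate dehydrogenases. They were chosen by symbol, as Cs, Aco1, Idh1, Idh2, Idh3a, Ogdh, Fh1, Mdh1 and Mdh2, and make up 9 of the 27179 genes in the expression table. All 9 passed the filter on low values and were among the 12037 genes tested. The choice was made with earlier results of these data known.

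RNA was sequenced from leukemia-initiating cells (LICs), the fraction of a leukemia that can start the disease again in a new host, sorted from bone marrow as YFP+Mac-1+c-Kit+ cells. There were 3 libraries labelled Asic3-/- (Asic3-null) and 3 labelled Asic3+/+ (WT), all of strain C57BL/6 with an age of 8 weeks. Both groups carried the same oncogene: lineage-negative fetal liver cells of either genotype were infected with a retrovirus for MLL-AF9 and YFP and transplanted into lethally irradiated C57BL/6 recipients. The leukemias were thus of donor origin in C57BL/6 hosts, and Asic3, which encodes a proton-gated cation channel, was deleted in the germ line and not in a chosen cell type. The labels number the samples but do not say whether each came from a separate mouse, so p-values measure the spread between these libraries, which may in part be technical.

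The TCA cycle runs in the mitochondrial matrix. Citrate synthase joins acetyl-CoA to oxaloacetate, aconitase turns citrate into isocitrate, and oxidative steps through 2-oxoglutarate, succinate and fumarate return it to malate and oxaloacetate while electrons pass to the respiratory chain. Several of these reactions also take place in the cytosol with an enzyme of their own, where isocitrate dehydrogenase makes NADPH and malate dehydrogenase is part of the malate-aspartate shuttle. IDH1 in the cytosol and IDH2 in mitochondria are the isocitrate dehydrogenases that carry gain-of-function mutations in human acute myeloid leukemia.

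The targeted gene went against its labels. Asic3 was at 9.12, 4.11 and 6.58 RPKM (reads per kilobase of transcript, scaled to the library's mapped reads) in the Asic3-null-labelled libraries and at 1.22, 1.85 and 0.435 RPKM in the WT-labelled ones, from 2 to 41 reads, with an adjusted p of 0.0260 from limma. Asic3 signal was thus higher in every library labelled Asic3-null, so all directions below refer to the labels as deposited. Whether the labels were exchanged or the null allele leaves transcript that was counted was not tested. Xist and the Y-linked genes Ddx3y, Eif2s3y, Kdm5d and Uty also separated the groups, all 5 without overlap, and sex and genotype label cannot be told apart. Of the sort markers, Itgam, which encodes Mac-1, was at 12.3 to 16.9 RPKM with the label Asic3-null and at 55.1 to 89.5 RPKM with the label WT. Kit was at 14.4, 17.9 and 20.4 RPKM against 9.09, 15.3 and 8.97 RPKM, with overlap, a log2 fold change of 0.64 and an adjusted p of 0.219 from limma, and YFP was not analysed here. Of the neutrophil markers, a list that included S100a8, S100a9, Ltb4r1 and Itgb2l, 12 of 12 were called lower at an adjusted p under 0.05 from limma. Among all tested genes 2.82% were called lower. The neutrophil markers had a summed level of 347 to 550 RPKM against 4451 to 5391 RPKM. Erythroid markers summed to 0.972 to 2.41 against 2.84 to 10.3 RPKM, with 2 of 8 at 0 in every library. T cell markers summed to at most 0.741 RPKM with 3 of 7 at 0 throughout, and B cell markers to 37.3 to 47.6 against 42.0 to 50.0 RPKM with 2 of 5 at 0 throughout. Nearly all of the B cell sum came from Cd79b, at 37.3 to 47.2 against 41.7 to 49.0 RPKM. Cd79a reached at most 1.16 RPKM and Pax5 at most 0.350 RPKM in any library. The part of these differences in any value below was not tested, and in bulk RNA fewer cells of a type and less RNA per cell cannot be told apart. The reads behind each value could be recovered from the RPKM values, and the library sizes they gave lay between 1947168 and 2381861 reads.

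None of the 9 genes was called between the groups, against 3.35% of all tested genes at an adjusted p under 0.05 (limma with Benjamini-Hochberg adjustment over all tested genes). At an unadjusted p under 0.05 there was 1 of 9, Idh1, where 15.9% of all genes passed. Idh1 was lower and Idh2 higher in all 3 libraries labelled Asic3-null than in any labelled WT, which is 2 of 9 genes without overlap between the groups, against 22.6% of all genes. Both shares were thus near the background. Among the 9, 5 log2 fold changes were positive and 4 negative, with a median of 0.11 and a range from -0.54 to 0.35, and the median of all tested genes was 0.03. Fold changes here are on the log2(RPKM + 1) scale, labelled Asic3-null minus labelled WT, and the limma 95% intervals of all 9 genes lay between -0.94 and 0.75. No gene was called with limma-voom on the recovered reads either, where 4.79% of all genes were.

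**Figure D1:**
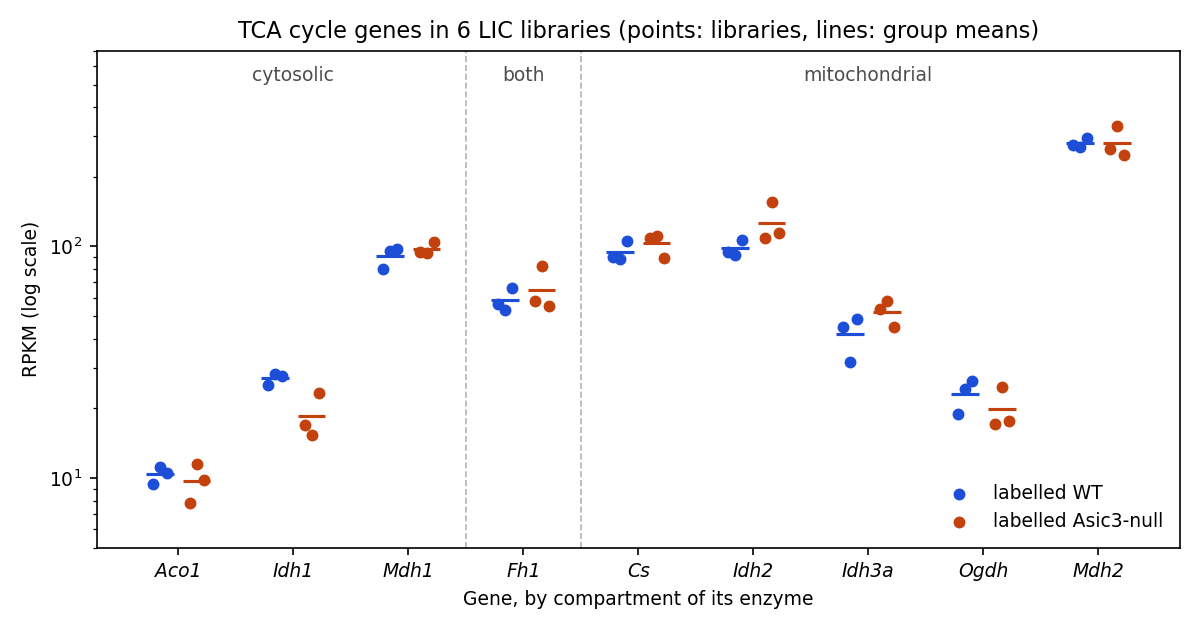
RPKM (log axis) of the 9 genes in each library, grouped by where the enzyme works, with 1 point a library and a line at each group mean. The points of the groups overlap for every gene but Idh1, lower in the Asic3-null-labelled libraries, and Idh2, higher in them.

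Levels of different genes can be set side by side because RPKM divides by transcript length. In the WT-labelled libraries, Mdh2 was the highest at a mean of 279.3 RPKM and Aco1 the lowest at 10.4 RPKM. Idh2, Cs and Mdh1 followed Mdh2 with ranges that overlapped from each to the next, then came Fh1, Idh3a, Idh1 and Ogdh, of which only Idh1 and Ogdh overlapped. In the Asic3-null-labelled libraries the order was the same except that Ogdh stood above Idh1, with overlapping ranges, and that the ranges of Fh1 and Idh3a overlapped. The cytosolic aconitase and isocitrate dehydrogenase were thus among the 3 lowest of the 9 in both groups, while the cytosolic malate dehydrogenase was at a level like that of citrate synthase.

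Cs (Entrez 12974, chr10:128337727-128362482 in GRCm38.p6) encodes citrate synthase, the entry step of the cycle. It was at 109.2, 110.5 and 89.6 RPKM in the Asic3-null-labelled libraries and at 90.1, 88.3 and 105.9 RPKM in the WT-labelled ones. The groups overlapped, since Asic3-null replicate 3 lay among the lower WT-labelled libraries. The log2 fold change was 0.12 with an SE of 0.14 and an adjusted p of 0.722 from limma, and lay between 0.07 and 0.22 with any 1 library left out.

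Aco1 (Entrez 11428, chr4:40143265-40199009) encodes the cytosolic aconitase, which without its iron-sulfur cluster acts as iron regulatory protein 1. Its levels were 7.80, 11.5 and 9.86 RPKM with the label Asic3-null and 9.47, 11.2 and 10.6 RPKM with the label WT, the lowest of the 9 genes at 78 to 118 reads. The groups overlapped, with the lowest and the highest library both labelled Asic3-null. The log2 fold change of -0.10 (SE 0.19, adjusted p 0.838, limma) became 0.03 without Asic3-null replicate 1.

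Idh1 (Entrez 15926, chr1:65158616-65186479) encodes the NADP-dependent isocitrate dehydrogenase of the cytosol and peroxisomes. It was at 17.0, 15.3 and 23.4 RPKM in the Asic3-null-labelled libraries, from 96, 89 and 134 reads, and at 25.4, 28.0 and 27.7 RPKM in the WT-labelled ones, from 130, 133 and 160 reads. The groups did not overlap, and Asic3-null replicate 3 came nearest to the WT range. The means were 18.6 ± 4.3 and 27.0 ± 1.5 RPKM (SD, n = 3), a ratio of 0.687. The log2 fold change was -0.54 with an SE of 0.18 and a 95% interval from -0.94 to -0.13, and limma gave an unadjusted p of 0.0149 and an adjusted p of 0.181. An exact permutation test of 3 against 3 libraries cannot give a two-sided p below 0.10, the value it gave here. Over the 14 alternatives the log2 fold change stayed between -0.71 and -0.42 and the adjusted p between 0.105 and 0.359. The libraries labelled Asic3-null varied by 22.9% (SD over mean) and those labelled WT by 5.4%, while counting alone gives 9.7% and 8.4%.

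Idh2 (Entrez 269951, chr7:80094845-80118608) encodes the NADP-dependent form of the mitochondrial matrix. Its levels were 108.5, 155.8 and 114.5 RPKM with the label Asic3-null against 94.9, 92.3 and 106.9 RPKM with the label WT. The groups did not overlap, but the highest library labelled WT lay just under the lowest labelled Asic3-null, and Asic3-null replicate 2 stood above the rest. The means were 126.3 ± 25.7 and 98.0 ± 7.8 RPKM (SD, n = 3), a ratio of 1.29. Limma gave a log2 fold change of 0.35 (SE 0.16, 95% interval -0.01 to 0.70, adjusted p 0.329), which was 0.19 without Asic3-null replicate 2.

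Idh3a (Entrez 67834, chr9:54586511-54604662) encodes the catalytic alpha subunit of the NAD-dependent isocitrate dehydrogenase, the form that works in the cycle proper. It was at 53.7, 58.0 and 45.0 RPKM in the Asic3-null-labelled libraries and at 45.1, 31.8 and 48.7 RPKM in the WT-labelled ones. The groups overlapped, with WT replicate 2 well below the other 5 libraries. The log2 fold change was 0.33 (SE 0.18, adjusted p 0.425, limma) and 0.15 without WT replicate 2. None of the isocitrate dehydrogenase genes was called, the value of Idh1 being negative and those of Idh2 and Idh3a positive.

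Ogdh (Entrez 18293, chr11:6291597-6359094) encodes the E1 component of the oxoglutarate dehydrogenase complex, which turns 2-oxoglutarate into succinyl-CoA. Its levels were 17.1, 24.8 and 17.6 RPKM with the label Asic3-null and 18.9, 24.2 and 26.2 RPKM with the label WT. A pair of libraries labelled Asic3-null lay below every library labelled WT, and the third lay within their range. The log2 fold change was -0.22 (SE 0.20, adjusted p 0.635, limma), and with any 1 library left out it lay between -0.38 (Asic3-null replicate 2 left out) and -0.12 (WT replicate 3 left out).

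Fh1 (Entrez 14194, chr1:175601378-175625635) encodes fumarate hydratase, of which both mitochondria and cytosol hold a form made from the same gene. It was at 58.0, 82.1 and 55.6 RPKM in the Asic3-null-labelled libraries and at 56.2, 53.2 and 66.0 RPKM in the WT-labelled ones. Asic3-null replicate 2 was the highest library and the others overlapped. The log2 fold change of 0.14 (SE 0.17, adjusted p 0.747, limma) turned to -0.04 without that library.

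Mdh1 (Entrez 17449, chr11:21556692-21571934) encodes the cytosolic malate dehydrogenase. It was at 95.1, 93.7 and 104.8 RPKM with the label Asic3-null and at 79.9, 96.0 and 97.1 RPKM with the label WT. The groups overlapped, and the log2 fold change was 0.11 (SE 0.13, 95% interval -0.18 to 0.40, adjusted p 0.730, limma). It was 0.02 without WT replicate 1 and 0.06 without Asic3-null replicate 3. Mdh2 (Entrez 17448, chr5:135778649-135790386) encodes the matrix form that closes the cycle. Its levels were 262.4, 331.4 and 247.8 RPKM in the Asic3-null-labelled libraries against 274.1, 270.0 and 293.9 RPKM in the WT-labelled ones. The highest and the lowest library both carried the label Asic3-null, as for Aco1, and the group means were 280.6 and 279.3 RPKM. The 95% interval of the Mdh2 log2 fold change ran from -0.31 to 0.30.

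**Figure D2:**
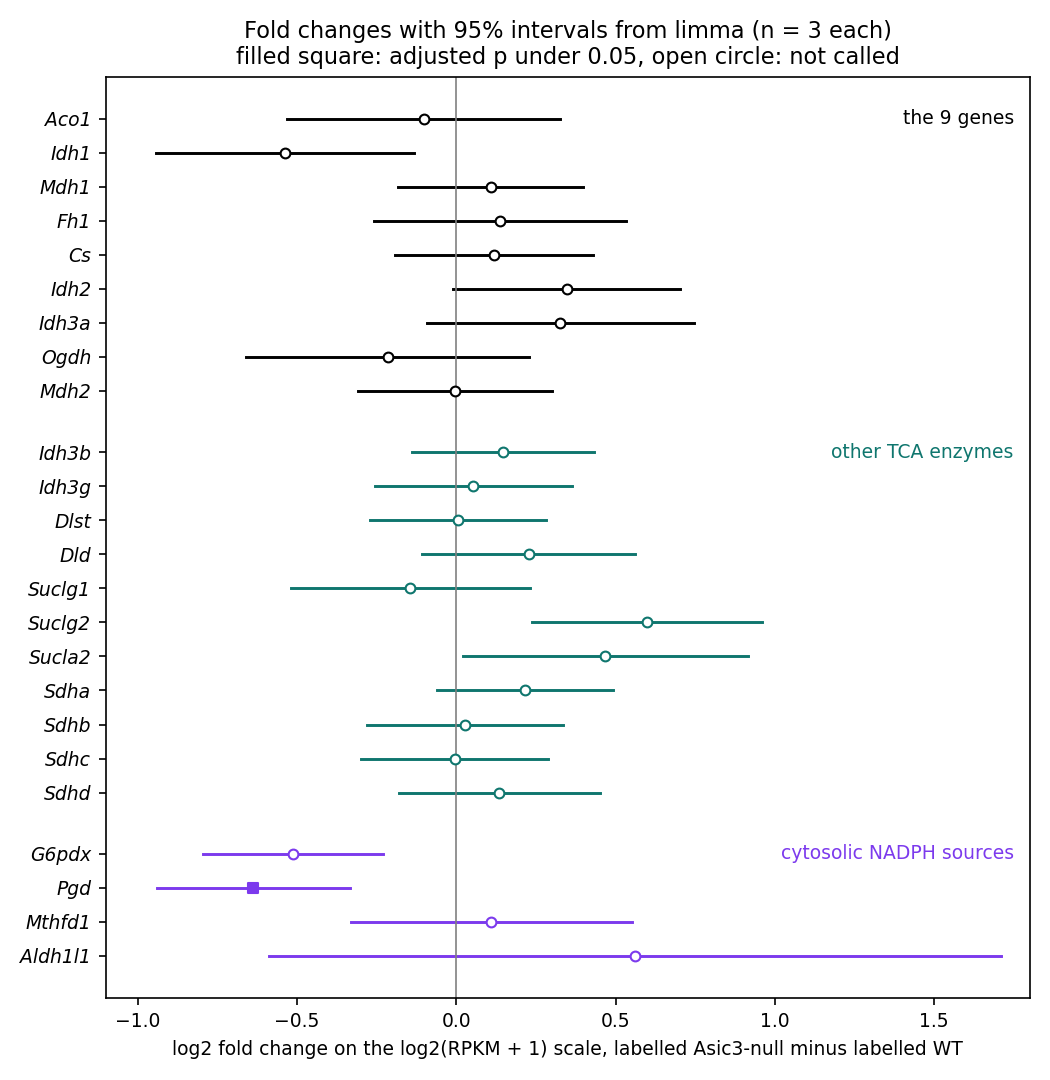
Log2 fold change, labelled Asic3-null minus labelled WT on the log2(RPKM + 1) scale, with its limma 95% interval, for the 9 genes, other TCA cycle enzymes and 4 cytosolic sources of NADPH. Pgd alone has the filled square of an adjusted p under 0.05, and among the 9 genes the interval of Idh1 alone leaves out 0.

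The cytosolic and mitochondrial enzymes were compared next. The cytosolic genes Aco1, Idh1 and Mdh1 had a median log2 fold change of -0.10 with 1 of 3 positive, and the mitochondrial genes Cs, Idh2, Idh3a, Ogdh and Mdh2 a median of 0.12 with 3 of 5 positive. Enzymes that exist in both compartments allow a comparison within each library, and the share of each form does not depend on how the libraries were scaled. Log2 ratios were taken after adding 1 to each RPKM value. Among all pairs of tested genes, 23.4% had a ratio without overlap between the groups.

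Idh1 made up 13.5, 8.96 and 17.0% of the summed RPKM of Idh1 and Idh2 in the Asic3-null-labelled libraries and 21.1, 23.3 and 20.6% in the WT-labelled ones. Every library labelled Asic3-null had a smaller cytosolic share than any labelled WT, with means of 13.2 ± 4.0 and 21.7 ± 1.4% (SD, n = 3). Idh1 was lower and Idh2 higher in every library labelled Asic3-null than in any labelled WT. The separation of the shares and the exact p of the ratio were thus fixed by those values and are no separate test. Idh2 exceeded Idh1 7.15 ± 2.72-fold against 3.63 ± 0.30-fold. The log2 ratio of Idh1 to Idh2 differed by -0.88 between the group means, with a two-sided exact permutation p of 0.10, the smallest that 3 against 3 libraries allow, and by -0.60 without Asic3-null replicate 2. The summed level of both genes was 144.9 ± 23.6 RPKM against 125.1 ± 8.3 RPKM, and its ranges overlapped.

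Mdh1 made up 26.1 ± 3.9% of Mdh1 and Mdh2 in the Asic3-null-labelled libraries and 24.5 ± 1.8% in the WT-labelled ones. The groups overlapped and the log2 ratio differed by 0.11 with an exact permutation p of 0.6. The cytosolic shares of isocitrate dehydrogenase thus lay apart between the labels, as the values of Idh1 and Idh2 required, and those of malate dehydrogenase overlapped. With 3 libraries of each label no such p could pass 0.05 before or after adjustment.

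**Figure D3:**
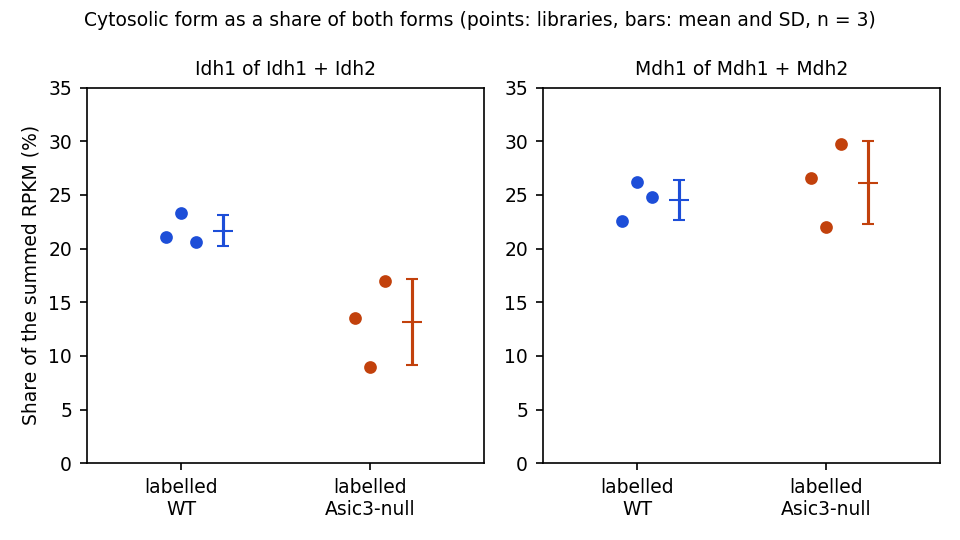
Cytosolic form as a percentage of the summed RPKM of the cytosolic and mitochondrial forms, with 1 point a library and the mean and SD of each group (n = 3). The groups lie apart for Idh1 with Idh2 (at most 17.0% against at least 20.6%) and overlap for Mdh1 with Mdh2. The separation follows from Idh1 being lower and Idh2 higher in every library labelled Asic3-null.

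The genes that complete these enzymes gave values without a call. Idh3b and the X-linked Idh3g, which encode the other subunits of the enzyme of Idh3a, had log2 fold changes of 0.15 and 0.05 (adjusted p 0.615 and 0.887, limma). Per Idh3a, Idh3b was at 1.67 ± 0.13 in the Asic3-null-labelled libraries and 1.91 ± 0.28 in the WT-labelled ones, and Idh3g at 3.34 ± 0.23 and 4.17 ± 1.29 (SD, n = 3), with the groups overlapping in both ratios. Dlst, the E2 core of the oxoglutarate dehydrogenase complex, had a log2 fold change of 0.01 (adjusted p 0.991, limma). Its level per Ogdh was 4.34 ± 1.16 and 3.64 ± 0.65, and overlapped as well. The subunits of these enzymes were thus listed at unequal levels in both groups, with Idh3a below its partners and Ogdh below Dlst.

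Across the other 12 TCA cycle enzymes none was called, 10 log2 fold changes were positive and 2 negative, and the median was 0.14. Counted with the mitochondrial genes described above, 13 of 17 mitochondrial enzymes were positive with a median of 0.14, where 6566 of all 12037 tested genes were positive. Of the 17, 4 lay without overlap, all with the higher values labelled Asic3-null. Beside Idh2 these were Suclg2, Sucla2 and Sdha. Among all 12037 tested genes, 1345 lay without overlap with the higher values labelled Asic3-null and 1372 with the lower values so labelled. No test compared these shares. Suclg2, the beta subunit of the GDP-forming succinyl-CoA ligase, was at 19.9, 19.0 and 17.4 RPKM with the label Asic3-null and at 10.4, 12.8 and 13.0 RPKM with the label WT. It came closest to the threshold of the 21 cycle enzymes tested, with a log2 fold change of 0.60, an SE of 0.16 and an adjusted p of 0.0940 from limma. Sucla2, the beta subunit of the ADP-forming ligase, had a log2 fold change of 0.47 (adjusted p 0.293, limma), which was 0.26 without WT replicate 1. Their common partner Suclg1 was at 60.3 to 84.8 RPKM against 67.6 to 90.4 RPKM, so that Suclg2 per Suclg1 was 0.266 ± 0.037 against 0.154 ± 0.010 (SD, n = 3), without overlap and with an exact permutation p of 0.10. Sucla2 per Suclg1 was 0.548 ± 0.0999 against 0.352 ± 0.048 (SD, n = 3), also without overlap and with an exact permutation p of 0.10. Sdha, the flavoprotein of succinate dehydrogenase, was at 116.9 to 126.3 RPKM against 95.3 to 115.8 RPKM, with an adjusted p of 0.426 from limma.

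Enzymes and carriers that bring carbon into the cycle, take it out or shuttle it between compartments made a list of 24 genes, of which 21 were tested and none called. The NADP-dependent malic enzymes Me1 and Me3 were listed at 0 in every library, and the glutaminase gene Gls2 at 0 to 0.835 RPKM. The median log2 fold change of the 21 was 0.14, with 14 positive and 7 negative. An unadjusted p under 0.05 was reached by 2 genes with positive values and 1 with a negative value, where 15.9% of all genes passed. The aspartate-glutamate carrier gene Slc25a13 was among the former, with a log2 fold change of 0.52 (adjusted p 0.193, limma). The gene on the other side was Me2, the NAD-dependent malic enzyme of mitochondria. Me2 was at 38.7, 49.8 and 43.9 RPKM against 56.4, 56.3 and 64.7 RPKM, without overlap (log2 fold change -0.42, adjusted p 0.192, limma).

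Of the 41 other cycle, entry and shuttle genes, Me2 and Mpc2 had the pattern most like that of Idh1 over the 6 libraries, by the mean absolute difference of centred log2(RPKM + 1), at 0.17 and 0.21. Mpc2, a subunit of the mitochondrial pyruvate carrier, was at 42.5 to 48.2 RPKM with the label Asic3-null and at 45.7 to 58.9 RPKM with the label WT (adjusted p 0.409, limma). The 6 libraries carry only 2 labels, and the likeness is a description without a test.

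Because Idh1 supplies cytosolic NADPH, the other cytosolic sources were set beside it. Of 4 tested genes, Pgd was called lower, where 2.82% of all genes were called lower, and Mthfd1 and Aldh1l1 had positive values that were not called. Pgd (Entrez 110208, chr4:149149991-149166705) encodes 6-phosphogluconate dehydrogenase of the pentose phosphate pathway. It was at 216.7, 263.9 and 233.8 RPKM in the Asic3-null-labelled libraries and at 320.5, 404.3 and 389.9 RPKM in the WT-labelled ones. The groups lay apart, and the log2 fold change was -0.64 with an SE of 0.13 and an adjusted p of 0.0383 from limma. The Pgd call was lost in 8 of 14 alternatives, with adjusted p up to 0.133: without Asic3-null replicates 1, 2 or 3 (0.133, 0.0532 and 0.128), without WT replicates 2 or 3 (0.130 and 0.114), with no filter on low values (0.0739), with no intensity trend (0.108) and with a replicate block (0.0638). G6pdx, the X-linked gene of the enzyme that opens the same pathway, was at 43.6, 49.4 and 51.9 RPKM against 69.4, 67.3 and 70.6 RPKM. Its groups lay apart too, with a log2 fold change of -0.51 and an adjusted p of 0.0664 from limma. Only 1 of the 14 alternatives, limma-voom on the recovered reads, brought the adjusted p of G6pdx under 0.05, at 0.0409. The highest was 0.201. G6pdx shares 19398 bases of its span with Ikbkg, and the library kit does not mark strand. The ratio of the group means was 0.687 for Idh1, and no test compared Idh1 with Pgd or G6pdx. The neutrophil markers summed to 347 to 550 RPKM with the label Asic3-null and 4451 to 5391 RPKM with the label WT. Their part in the values of Idh1, Pgd and G6pdx was not tested.

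**Figure D4:**
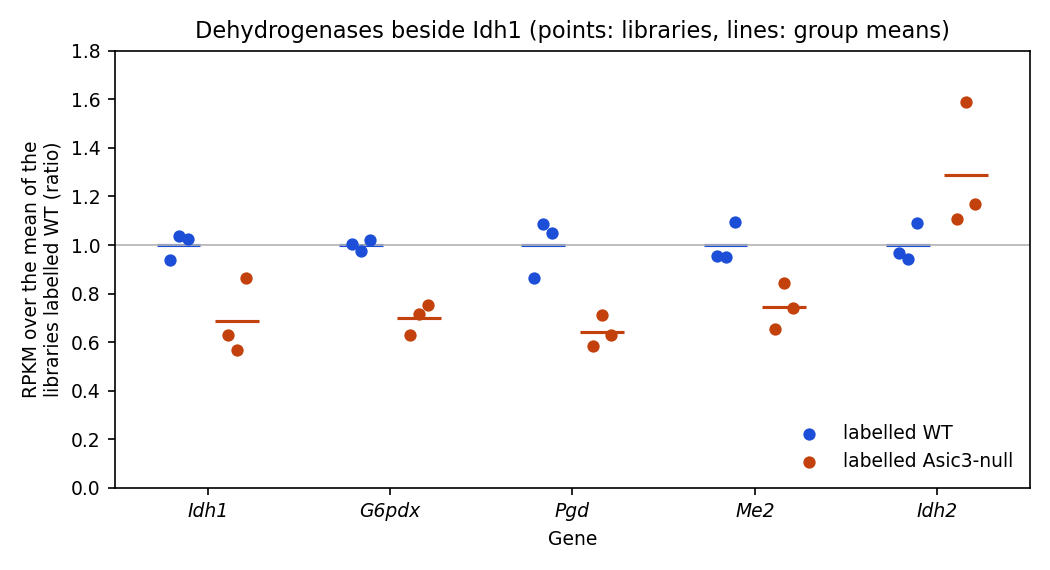
RPKM of Idh1, G6pdx, Pgd, Me2 and Idh2 in each library over the mean of the WT-labelled libraries, with 1 point a library and a line at each group mean. Idh1, G6pdx, Pgd and Me2 lie below the WT points in all 3 libraries labelled Asic3-null and Idh2 above them, and of these genes only Pgd was called. Mthfd1 and Aldh1l1, the other cytosolic NADPH sources tested, are not shown. Their log2 fold changes were positive, at 0.11 and 0.56, and not called. Me2, a mitochondrial enzyme, had the pattern most like that of Idh1 among the genes compared.

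Iron-handling genes were read beside Aco1 because the Aco1 protein can bind transcripts of some of them when iron is low. None of the 8 tested was called, and the median log2 fold change was -0.07. Tfrc, the transferrin receptor gene and a textbook target of iron regulatory proteins, was at 24.9 to 31.9 RPKM with the label Asic3-null and 26.5 to 29.1 RPKM with the label WT. Fbxl5, which encodes the iron-sensing adaptor that marks iron regulatory protein 2 for degradation, was at 20.4, 14.6 and 15.1 RPKM against 35.7, 27.3 and 22.8 RPKM, without overlap (log2 fold change -0.73, adjusted p 0.107, limma). Only 1 of the 14 alternatives, limma-voom on the recovered reads, brought the adjusted p of Fbxl5 under 0.05, at 0.0368. The highest was 0.294. Slc40a1, the iron exporter ferroportin, was at 0.256, 2.24 and 3.15 RPKM against 3.66, 4.41 and 3.87 RPKM, with 2 reads in the lowest library and an adjusted p of 0.309 from limma.

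Ldha, which encodes a lactate dehydrogenase subunit that takes pyruvate away from the cycle, and Meis1, a homeobox gene of MLL-rearranged leukemia, give the context of the study's glycolytic question. Ldha was at 297.4, 424.4 and 315.3 RPKM in the Asic3-null-labelled libraries and at 285.8, 250.4 and 410.8 RPKM in the WT-labelled ones, with wide overlap (log2 fold change 0.15, adjusted p 0.778, limma). Meis1 was higher in the Asic3-null-labelled libraries, by 0.91 on the log2 scale with an adjusted p of 0.0367 from limma, and was not called in 8 of 14 alternatives. Against these, the median log2 fold change of all 21 TCA cycle enzymes was 0.12, with none called.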

How the data were processed

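Total RNA of sorted LICs was sequenced after TruSeq RNA v2 library preparation, which does not mark strand. The submitters' processing notes, per the labels, name CASAVA 1.8.2, TopHat2 2.0.12 and the build GRCm38. The authors deposited RPKM values per gene, and the counting tool and annotation are not given in the sources used here. RefSeq annotation of GRCm38.p6 supplied symbols and positions (25275 genes matched by Entrez number). Whole reads were recovered for all 16825 genes above 0, within 0.0001 reads, from inferred library sizes of 1947168 to 2381861. A single read of a 2 kb transcript is worth 0.21 to 0.257 RPKM. Recovered reads carry no molecular identifiers, so counting errors cover counting only.

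Genes averaging 1 RPKM or more over the libraries were tested on log2(RPKM + 1) with limma 3.58.1 (R 4.3.3, intensity trend, Benjamini-Hochberg, threshold 0.05), with all 6 libraries and the genotype label as the only term. Ratios within a library were compared by the exact permutation test, two-sided. Alternatives were a pseudocount of 0.1, quantile normalization or median-ratio scaling of the libraries, no filter or a stricter filter of 5 RPKM, a fit lacking the intensity trend, limma-voom on the recovered reads with TMM factors, a replicate block and each library left out in turn. All replicate pairs differed by more than sampling noise (chi-square per degree of freedom 4.01 to 8.24). The steps were tested on simulated data. Tables were handled in Python 3.11.15.

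The genes, lists and tests were chosen with earlier results of these data known. Named genes were the 9 enzymes, Idh3b, Idh3g and Dlst, the called genes and the 2 lowest p of each further list, the 2 genes most like Idh1, and Asic3, Meis1 and Ldha. A few results under this rule are not reported here. Suclg1, Sdha, Slc25a13, Me1, Me3, Gls2, Mthfd1, Aldh1l1 and Tfrc were named after their values were seen. Gene spans were checked for overlap for the 9 enzymes, Idh3b, Idh3g, Dlst, Suclg2, Me2, Pgd and G6pdx. None of the 9 overlapped another gene in the table, while Idh3b shared 5 bases with Nop56 and Dlst 64 bases with Prox2, and G6pdx overlapped Ikbkg.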

Additional observations from a re-analysis of the deposited data

How the results depend on the processing

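None of the 9 genes was called in any of the 14 alternatives. Of their 126 log2 fold changes under alternatives, 120 kept their direction and 6 changed sign, in 3 genes near 0. Leaving out 1 library moved Aco1 between -0.219 and 0.0321, Fh1 between -0.0364 and 0.241 and Mdh2 between -0.130 and 0.0790, and quantile normalization turned Mdh2 to 0.0197. Idh3g moved between -0.0469 and 0.111, Dlst between -0.0747 and 0.0530, Ldha between -0.0114 and 0.351 and the log2 ratio of Mdh1 to Mdh2 between -0.0213 and 0.268 with a library left out, and Dlst was at -0.0083 with median-ratio scaling and -0.0186 with limma-voom. The cause of these changes of sign was not tested. The number of genes called over the whole table was 403, fell to 293 without WT replicate 3 and to between 203 and 239 without any other library, where fewer samples enter, and reached 577 with limma-voom. The higher Asic3 signal was not called in 6 of 13 alternatives, with its direction kept. A mean RPKM of at least 5 left Asic3 and Slc40a1 untested.

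Replicate numbers recur in both groups but libraries with the same number did not deviate together, with correlations of 0.06, -0.06 and -0.12 over 12037 genes. With the replicate block 246 genes were called in place of 403, none of them among the 9, and under this pairing the log2 ratio of Idh1 to Idh2 cannot give an exact p below 0.25. Among the 9 genes depth limits Aco1 most, since counting alone gives an SD of 10.1 to 10.2% of its level there.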
